A study of Homo sapiens with 3 samples.

Results

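The response to tumour necrosis factor alpha (TNF) was measured in human colon carcinoma cells in which the Notch intracellular domain (NICD) had been switched on. NICD is the fragment of a Notch receptor that enters the nucleus and acts on transcription. The cells were LS174T-tetON-NICD, a derivative of the established colon carcinoma line LS174T in which doxycycline induces NICD. The first culture received TNF (50 ng/ml) and doxycycline (100 ng/ml) for 24 h and is called TNF+Dox. The other received doxycycline alone (100 ng/ml) for 24 h and is called Dox. Each was hybridised on 1 two-colour array, with the treated RNA in Cy3 and an untreated control of the same line in Cy5. The TNF effect was the log2 ratio of treated over control on the TNF+Dox array minus that on the Dox array. These were 2 of the 3 arrays of the series, and the third held TNF alone. Both cultures carried doxycycline. Whether its own effect, or the NICD level it induced, was the same with and without TNF was not tested. Each condition was 1 culture on 1 array without a dye swap, so no difference below has a test, a p-value or a biological replicate error.

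TNF binds TNFR1 on epithelial cells, and the receptor complex of TRADD, RIPK1, TRAF2 and the BIRC ubiquitin ligases activates the IkB kinases. These release NF-kB dimers from their IkB inhibitors, and the dimers then drive chemokines, survival factors and their own inhibitors, which ends the signal. In the intestinal epithelium TNF is a driver of inflammation, while Notch holds progenitors in the absorptive and proliferative state through HES1. The comparison addresses what TNF does to transcription once Notch is active.

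Of 24460 gene probes, 16751 probes of 14848 genes were above background in at least 1 channel of both arrays and were compared. Treated RNA gave a signal above the blanks at 20465 probes in TNF+Dox and 20156 in Dox, with a median signal over the blanks of 61.7 intensity units in TNF+Dox and 55.7 in Dox. OLFM4, a stem cell gene and Notch target, had a treated signal of 65471 in TNF+Dox, where it was saturated, and 23319 in Dox, against control signals of 112 on the TNF+Dox array and 66.9 on the Dox array. HES1, the repressor induced by Notch, stood at log2 1.00 over control in TNF+Dox and 1.35 in Dox, and HES5 at 3.72 in TNF+Dox and 3.13 in Dox. The NOTCH1 probe stood at -0.72 over control in TNF+Dox and -0.43 in Dox, and whether it lies within the part encoding NICD is not given in the sources used here. All 13 colonic epithelial markers on the arrays, among them EPCAM, CDX1, CDX2 and VIL1, were above background in both cultures, with a summed treated signal of 111220 in TNF+Dox and 117794 in Dox.

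Adding TNF to NICD-expressing cells was marked by high NF-kB feedback, chemokine and antigen presentation genes and by low cell cycle genes. A level at least 2-fold higher in TNF+Dox than in Dox was found for 181 genes (1.22%), and one at least 2-fold lower for 132 genes (0.889%). As normalised here, 32 genes were at least 4-fold higher, 8 of them at least 8-fold, and 1 gene, MT4, was at least 4-fold lower. Low genes stood further out under other settings, with DUSP6 at -3.19 with the local background and CLDN2 at -2.89 by the authors' deposited values. The median of all 14848 genes was -0.0019 on the log2 scale, and the 1st and 99th percentiles were -0.97 and 1.09. Technical spread was read from the untreated channels and from repeated probes. The untreated channels of both arrays differed with an SD of 0.084 (log2, over genes). Between probes of the same gene the TNF effect had an SD of 0.224 (log2, 1641 genes). Neither includes the spread between treated cultures. Of the called genes with several probes, 10 of 15 on the high side and 4 of 8 on the low side had every probe past 2-fold. All of them had every probe on the same side of 0. They were called by the mean of these same probes, so that is no independent support. A choice that mattered for single genes was the background. With the scanner's local background in place of the blanks, 38 of the 124 named genes past 2-fold were under it or had the other sign, and for the genes named below those values are given beside the group.

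**Figure D1:**
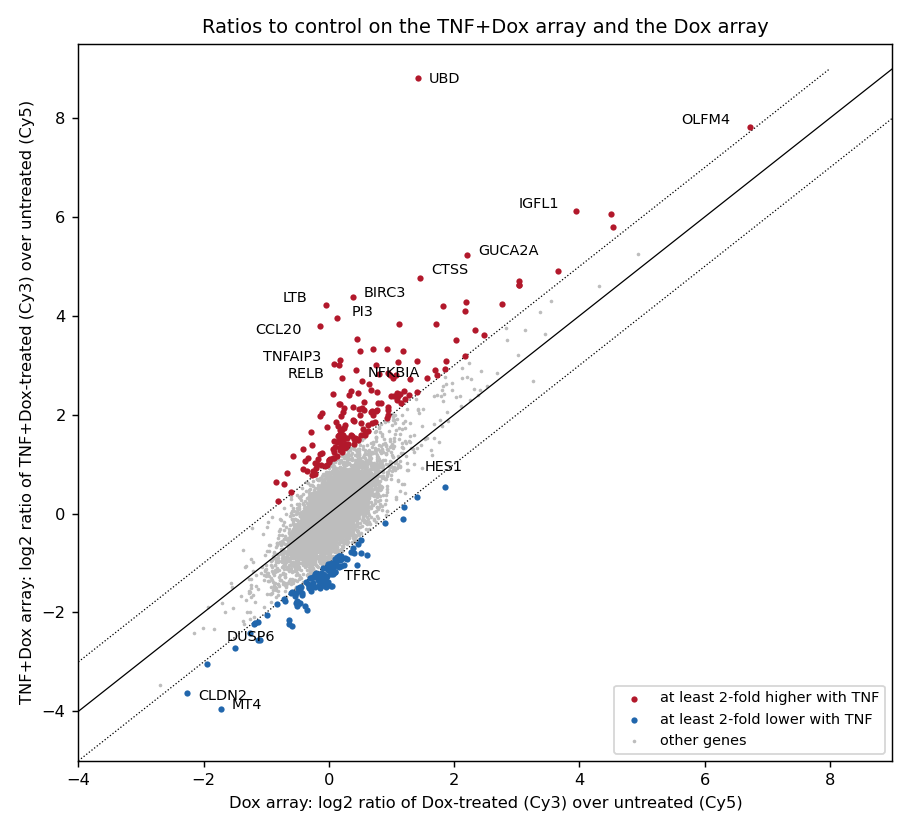
Each of 14848 genes by its log2 ratio over untreated control on the TNF+Dox array (y axis) and on the Dox array (x axis). The solid line marks equal ratios and the dotted lines a 2-fold difference; the 181 genes at least 2-fold higher with TNF are red, the 132 at least 2-fold lower are blue, and the red genes reach much further from the line (UBD 7.38, MT4 -2.23).

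**Figure D2:**
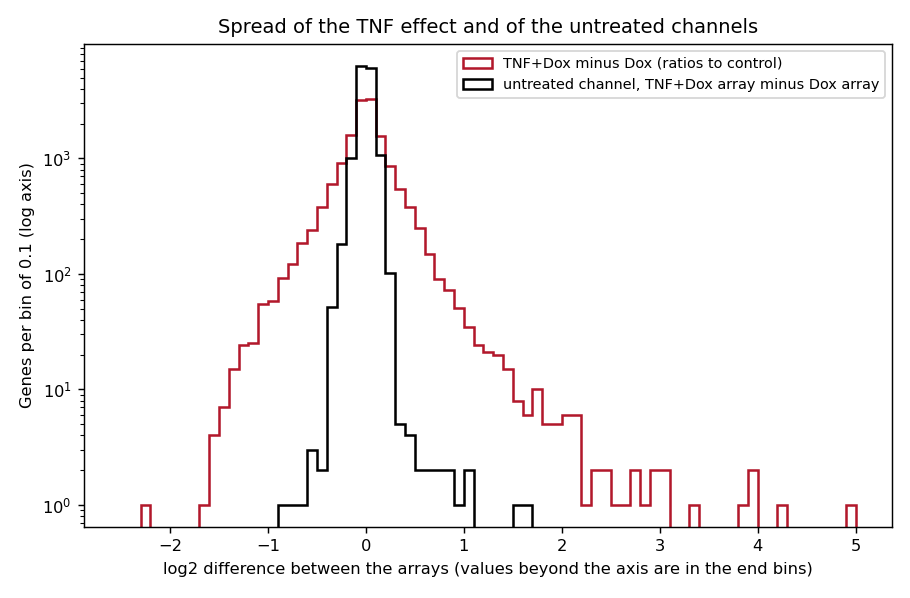
Number of genes (log axis) per bin of log2 difference, for TNF+Dox minus Dox (red) and for the untreated channel of the TNF+Dox array minus that of the Dox array (black). The untreated channels stay close to 0 (SD 0.084) but for 4 genes at 2-fold or more, whereas the TNF effect extends to the right far beyond them.

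The signal set how large a difference could appear. The normalisation adds an offset of 50 units to each channel, so differences of dim genes are understated. None of the 4681 genes whose mean treated signal was 50 or less passed 2-fold in either direction, against 107 higher and 78 lower among the 3880 genes above 500. CXCL8, the neutrophil chemokine also called interleukin 8, is a case in point, with treated signals of 93.3 in TNF+Dox and 9.28 in Dox and a TNF effect of only 0.93. Absence from the lists of 2-fold genes is therefore no sign of absence of a response in dim genes.

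The gene furthest apart was UBD, the gene of FAT10, a ubiquitin-like tag that directs proteins to the proteasome. Its treated signal was 65471 in TNF+Dox, where the spot was saturated, and 140 in Dox. The control signals were 29.8 on the TNF+Dox array and 1.85, not well above background, on the Dox array. By the Cy3 levels as scaled for bounds, UBD stood at least 292-fold higher in TNF+Dox (log2 8.19), a figure open to dye bias without a dye swap. Other readings were lower, so this bound holds for that scaling only. UBD had a ratio difference of 7.38, and its Cy3 channels alone, scaled between the arrays by quantiles, differed by 8.11 (log2). Over control it stood at 8.81 in TNF+Dox and 1.43 in Dox. The NF-kB targets LTB, BIRC3 and CCL20 followed. LTB, the membrane-bound partner of lymphotoxin, had treated signals of 2545 in TNF+Dox and 11.05 in Dox, a TNF effect of 4.26. BIRC3, the ubiquitin ligase cIAP2 of the TNF receptor complex, had 3467 in TNF+Dox and 125 in Dox, a TNF effect of 4.00, with control signals of 46.7 on the TNF+Dox array and 46.6 on the Dox array. CCL20, which attracts CCR6-bearing lymphocytes and dendritic cells, had 1303 in TNF+Dox and 5.10 in Dox, where it was not well above background. By the same scaling as for UBD, CCL20 stood at least 18.2-fold higher (log2 4.19). Its ratio difference was 3.93, and 2.85 to 7.74 under other settings, so this bound too holds for that scaling only. In each of these genes the TNF+Dox culture was the high one on the treated channel, while both untreated channels were dim.

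For several genes with a very bright treated spot, the control signal was also higher on the TNF+Dox array than on the Dox array. On the TNF+Dox array it was 30.6 for LTB, 42.1 for PI3, 137 for GUCA2A, 137 for SPIB, 108 for SERPINA12 and 47.8 for IGFL1. On the Dox array it was 7.11 for LTB, 4.37 for PI3, 13.8 for GUCA2A, 18.5 for SPIB, 28.6 for SERPINA12 and 9.77 for IGFL1. The genes whose untreated channels differed by at least 2-fold were GUCA2A (log2 1.64), SPIB (1.51), SERPINA12 (1.04) and BTN3A1 (1.01). BTN3A1 had a treated signal of only 255 in TNF+Dox. Other bright genes had like control signals on both arrays. PLA2G2A, with 21331 in TNF+Dox, had 167 on the TNF+Dox array and 162 on the Dox array. TNFSF10, with 4873 in TNF+Dox, had 147 and 148. The part of the treated signal in the higher control signals was not tested. Where the control signal is higher, the ratio difference is smaller than that of the Cy3 channels alone. The latter was 5.30 for LTB, 5.10 for PI3 and 4.74 for GUCA2A.

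**Figure D3:**
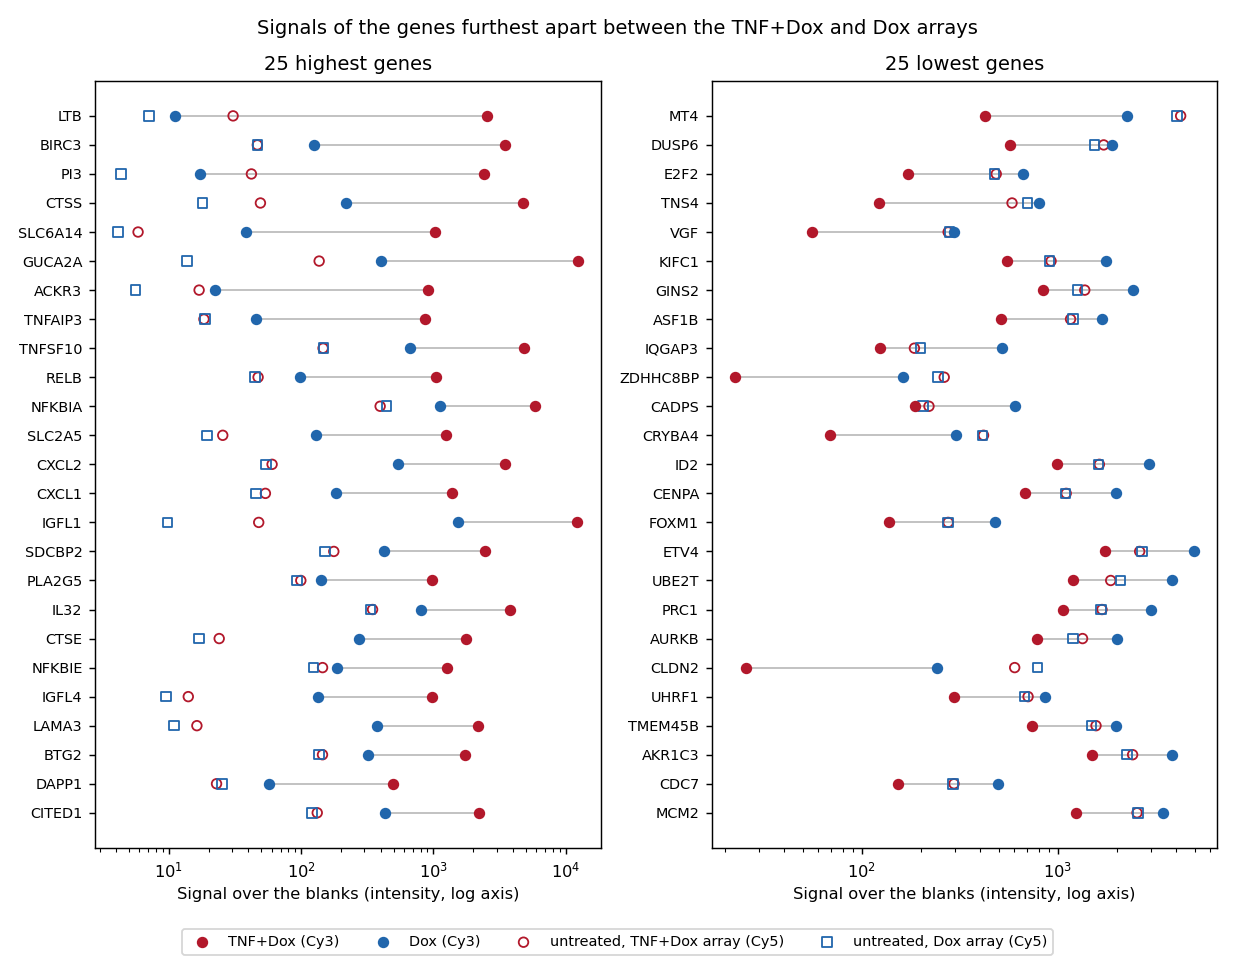
Signal over the blanks (intensity units, log axis) of the 25 highest and 25 lowest genes with all channels above background and unsaturated. Filled points are the treated channels of TNF+Dox (red) and Dox (blue), and open points the untreated channels; in the high genes the red points stand alone on the right, and in the low genes they stand on the left, mostly below the untreated channels.

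Some promoters of the high genes carried the NF-kB motif. The kappaB consensus was searched on both strands of RefSeq promoters (GRCh38.p14, 250 bases before to 50 after the gene start), and a promoter counted once however many matches it held. It was present in 11 of 26 promoters (42.3%) of genes at least 4-fold higher, 35 of 156 (22.4%) of genes at least 2-fold higher and 16 of 105 (15.2%) of genes at least 2-fold lower. Among the low S-phase genes described further on it was present in 8 of 36 (22.2%), close to the share of the 2-fold higher genes. The share was 10.8% of all 27305 promoters and 12.9% of the 11942 promoters of compared genes. A match is a description of letters and says nothing of binding in these cells. The matches are capitalised in the following stretches, written 5′ to 3′ on the strand of the gene. They were picked for holding a match, among well-known NF-kB targets at least 4-fold higher, and SLC6A14, PTGES, SEMA5B and TNFSF10, which were also at least 4-fold higher, held none in this window.
UBD: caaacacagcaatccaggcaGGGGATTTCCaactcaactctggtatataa
LTB: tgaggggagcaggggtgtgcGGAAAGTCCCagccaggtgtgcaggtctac
BIRC3: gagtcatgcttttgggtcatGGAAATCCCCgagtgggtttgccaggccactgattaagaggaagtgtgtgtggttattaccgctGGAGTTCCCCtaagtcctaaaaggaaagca
CCL20: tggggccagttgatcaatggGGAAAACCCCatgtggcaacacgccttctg
TNFAIP3: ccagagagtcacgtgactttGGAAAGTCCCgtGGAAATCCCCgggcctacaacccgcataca
NFKBIA: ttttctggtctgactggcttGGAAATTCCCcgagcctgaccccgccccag
CXCL1: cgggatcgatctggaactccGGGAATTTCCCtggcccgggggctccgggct
The stretches lie at chr6:29559756-29559805 (minus strand) for UBD and at chr6:31582482-31582531 (minus strand) for LTB. They lie at chr11:102317265-102317378 (plus strand) for BIRC3 and at chr2:227813743-227813792 (plus strand) for CCL20. Those of the feedback inhibitors are chr6:137867172-137867233 (plus strand) for TNFAIP3 and chr14:35404801-35404850 (minus strand) for NFKBIA. That of CXCL1 is chr4:73869294-73869344 (plus strand). BIRC3 and TNFAIP3 hold 2 separate matches each, and the 2 matches of CXCL1 overlap. The stretches show only bases before the gene start, so for LTB 1 of the 2 matches in the searched window is shown.

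Among the NF-kB subunits and IkB proteins, 6 of 16 were at least 2-fold higher and 0 lower, with a list median of 0.34. The inhibitor NFKBIA (IkB alpha) had treated signals of 5828 in TNF+Dox and 1131 in Dox, a TNF effect of 2.47. NFKBIE (IkB epsilon) had 1259 in TNF+Dox and 186 in Dox, an effect of 2.12. RELB, the subunit of the non-canonical pathway, had 1044 in TNF+Dox and 98.4 in Dox, an effect of 2.54. The high members were thus inhibitors as well as subunits, with IKBKE (1.19), NFKB1 (1.12) and the IkB-like coactivator BCL3 (1.11) closer to 2-fold. REL stood at 0.71, NFKB2 at 0.34, RELA at 0.20, and the kinases IKBKB and CHUK at 0.34 and 0.11. Under the local background 4 of 16 were at least 2-fold higher, beside 173 of 14848 over all genes, with NFKBIE at 0.75 and BCL3 at 0.92.

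The TNF receptor complex and its feedback regulators had 6 of 26 members at least 2-fold higher, 0 lower and a median of 0.40. After BIRC3 came TNFAIP3, the ubiquitin-editing enzyme A20 that shuts off the receptor complex, with 865 in TNF+Dox and 45.6 in Dox, an effect of 2.85. Its partner TNIP1 stood at 1.42, the deubiquitinase CYLD at 1.24, the ubiquitin-binding OPTN at 1.99 and TNFAIP2 at 1.16 (0.95 with the local background). The core adaptors did not pass 2-fold: TRADD and RIPK1 stood at 0.42 and 0.41, TRAF2 at 0.08 and the receptors TNFRSF1A and TNFRSF1B at -0.17 and -0.28.

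Chemokines and cytokines had 5 of 20 members at least 2-fold higher and 0 lower, with a median of 0.54. The neutrophil attractants CXCL1, CXCL2 and CXCL3 had treated signals of 1372, 3471 and 1522 in TNF+Dox, against 184, 539 and 301 in Dox, for effects of 2.25, 2.37 and 1.98. CXCL2 was above control in Dox as well, with 4.19 in TNF+Dox and 1.82 in Dox. IL32, a proinflammatory cytokine, stood at 2.13. With an offset of 16, 8 of 20 members were at least 2-fold higher, and by the authors' deposited values 8 of 18. Over all genes the higher counts also rose, to 278 of 14848 with that offset and 563 of 14369 by the deposited values. ACKR3, the scavenger receptor of CXCL12, which belongs to no list, had 913 in TNF+Dox and 22.3 in Dox, an effect of 2.94. In the TNF superfamily, 4 of 19 members were at least 2-fold higher and 0 lower, with a median of 0.25. TNFSF10 encodes the death ligand TRAIL. It had 4873 in TNF+Dox and 668 in Dox, an effect of 2.72, with control signals of 147 on the TNF+Dox array and 148 on the Dox array. TNFRSF21 (death receptor 6) stood at 1.68 and TNFSF15 (TL1A) at 1.06 (0.46 with the local background), while the TRAIL receptors TNFRSF10A and TNFRSF10B stood at 0.10 and 0.41.

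Of the caspases, the BCL2 family and other cell death genes, 1 of 23 was at least 2-fold higher. It was BID, the link from caspase-8 to the mitochondrial pathway, with 2559 in TNF+Dox and 808 in Dox and an effect of 1.48. With the local background, BID stood at -1.06, so that its direction depends on the background. CASP1, CASP4 and CASP8 stood at 0.87, 0.65 and 0.62, FAS at 0.38, MCL1 at 0.44 and BCL2L1 at -0.11.

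Some genes of antigen presentation stood high in TNF+Dox. Of 18 genes of MHC class I presentation and the immunoproteasome, 6 were at least 2-fold higher and 0 lower, with a median of 0.53. B2M, the invariant light chain of class I, had 39381 in TNF+Dox and 15378 in Dox, an effect of 1.51. The immunoproteasome subunits PSMB9 and PSMB10 stood at 1.61 and 1.34, the peptide transporter TAP1 at 1.23, and the non-classical heavy chains HLA-F and HLA-E at 1.46 and 1.35. PSMB8 (0.80) and PSME1 (0.83) were below 2-fold and NLRC5, the class I coactivator, stood at -0.22. This count was 4 of 18 with the local background, beside 173 of 14848 over all genes, and HLA-E stood at 0.51 there and PSMB10 at 0.92. Class II genes had 2 of 7 members at least 2-fold higher, with a median of 0.04. They were the protease CTSS, with 4727 in TNF+Dox and 218 in Dox, and the invariant chain CD74, with 379 in TNF+Dox and 6.16 in Dox and control signals not well above background. Their effects were 3.32 and 2.34, but HLA-DRA stood at 0.04. Of 15 leukocyte markers on the arrays, 9 were above background in TNF+Dox, with a summed treated signal of 2607, and 10 in Dox, with a sum of 1407. The probes of CD79A (1125 in TNF+Dox, 682 in Dox), LYZ (783 in TNF+Dox, 329 in Dox) and CD68 (554 in TNF+Dox, 278 in Dox) made up most of both sums, and PTPRC and CD4 were not above background in any channel. The labels name only LS174T-tetON-NICD cells, so no other cell type was part of the design. What these marker probes report in that line was not tested. Fibroblast and endothelial markers were above background for 10 of 14 genes in TNF+Dox, with a sum of 819, and 9 of 14 in Dox, with a sum of 742.

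Interferon-stimulated genes had 7 of 44 members at least 2-fold higher and 0 lower, with a median of 0.36. IFIT3, which binds viral RNA complexes with its relatives, had 339 in TNF+Dox and 42.9 in Dox, an effect of 1.76. The exonuclease ISG20 had 1103 in TNF+Dox and 352 in Dox, an effect of 1.49. IFIT2 stood at 1.32, TRIM22 at 1.27, the RNA sensors IFIH1 and RIGI at 1.20 and 1.11, and IFI6 at 1.03. Others of the group stood near 0, among them RSAD2 (-0.07), MX2 (-0.09), OAS2 (-0.03) and IFI44L (-0.10), and IRF1, a factor induced by both interferon and NF-kB, at 0.96. Under the local background 3 of 44 were at least 2-fold higher, beside 173 of 14848 over all genes. IFIT3 (0.23), IFIT2 (0.86), TRIM22 (0.59), RIGI (0.96) and IFI6 (0.88) were under 2-fold there. With an offset of 16 the count was 12 of 44, and by the authors' deposited values 14 of 44. Over all genes 278 of 14848 and 563 of 14369 were at least 2-fold higher under these 2 settings. The core of the interferon regulatory factor motif, GAAANNGAA on either strand, was present in 17 of 156 promoters (10.9%) of genes at least 2-fold higher and in 4 of 105 (3.81%) of genes at least 2-fold lower, against 6.57% of the promoters of compared genes. It is capitalised in the promoters of 2 genes of this group, picked for holding a match and taken from RefSeq (GRCh38.p14).
IFIT3: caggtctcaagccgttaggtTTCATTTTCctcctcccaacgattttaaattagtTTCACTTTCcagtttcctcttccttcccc
ISG20: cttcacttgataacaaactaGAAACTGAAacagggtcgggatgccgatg
They lie at chr10:89327822-89327904 (plus strand) and at chr15:88638927-88638975 (plus strand), and IFIT3 holds 2 matches, both read from the opposite strand.

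Defence, adhesion and protease genes of the epithelium differed gene by gene. Of 25 acute-phase and antimicrobial genes, 3 were at least 2-fold higher and the median was 0.04. The elastase inhibitor PI3 (elafin) had 2422 in TNF+Dox and 17.2 in Dox, an effect of 3.82. PLA2G2A, a bactericidal phospholipase, had 21331 in TNF+Dox and 9105 in Dox, an effect of 1.25, and was high over control in both cultures (5.79 in TNF+Dox and 4.54 in Dox). TLR3, a sensor of double-stranded RNA, stood at 1.15. LCN2 stood at 0.64 and the serum amyloids SAA1 and SAA2 at 0.18 and 0.04. By the authors' deposited values 8 of 24 of these genes were at least 2-fold higher and 1 lower, with a median of 0.44. Over all genes those values gave 563 higher and 495 lower of 14369. Of 19 adhesion and protease genes, 6 were at least 2-fold higher with a median of 0.32, led by CTSS, the laminin chains LAMA3 (2.08) and LAMB3 (1.33) and the protease MMP7 (2.03, with dim control channels). ICAM1 stood at 0.64. Of 24 serpins and other protease inhibitors, 5 were at least 2-fold higher with a median of 0.28, among them SERPINA1 (1.79), SERPINA12 (1.55), SERPINB1 (1.48) and SERPINE2 (1.38). Of 17 prostaglandin and kynurenine enzymes, 3 were, and the inducible prostaglandin E synthase PTGES had 668 in TNF+Dox and 12.2 in Dox, an effect of 2.94. MMP7 (0.85), LAMB3 (0.47) and SERPINA1 (0.79) were under 2-fold with the local background.

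The S-phase genes were low as a block. Of 40 genes of replication licensing and DNA synthesis, 16 were at least 2-fold lower, 0 higher, and all 40 were below 0, between -1.60 and -0.32, with a median of -0.92. E2F2, a transcription factor of the G1 to S transition, had 172 in TNF+Dox and 667 in Dox, an effect of -1.60. GINS2, a subunit of the replicative helicase, had 842 in TNF+Dox and 2416 in Dox, an effect of -1.49, with control signals of 1374 on the TNF+Dox array and 1263 on the Dox array. The other helicase subunits MCM2, MCM5, MCM6 and MCM4 stood at -1.33, -1.33, -1.29 and -1.03, whereas MCM7 stood at -0.33. The clamp PCNA stood at -0.90, thymidylate synthase TYMS at -0.91 and ribonucleotide reductase RRM2 at -0.70. Over control, the median of this list was -1.004 in TNF+Dox and -0.11 in Dox. In TNF+Dox 20 of 40 members were at least 2-fold below control, in Dox 0. With the local background 10 of 40 were at least 2-fold lower, beside 194 of 14848 over all genes. There 38 of 40 were below 0, and E2F2 (-0.46), MCM2 (-0.84) and CDC6 (-0.98) were under 2-fold. By the authors' deposited values 30 of 40 were at least 2-fold lower, beside 495 of 14369 over all genes.

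Motifs of E2F, the factor family that drives these genes, were searched as TTTGGCGC and TTTCCCGC on both strands of the same RefSeq promoters. They were present in 18 of 36 promoters (50.0%) of the S-phase list, in 3 of 41 (7.32%) of the mitosis list, in 13 of 105 (12.4%) of genes at least 2-fold lower and in 2 of 156 (1.28%) of genes at least 2-fold higher, against 3.33% for compared genes. The matches are capitalised in 4 promoters, picked for holding a match among the low members. MCM2 (-1.33), CHAF1A (-1.30) and FEN1 (-1.26), also at least 2-fold lower, held none in the searched window.
E2F2: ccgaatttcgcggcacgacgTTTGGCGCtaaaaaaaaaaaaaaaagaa
GINS2: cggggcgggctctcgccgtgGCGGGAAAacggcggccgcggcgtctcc
UHRF1: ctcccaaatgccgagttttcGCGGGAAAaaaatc
MCM6: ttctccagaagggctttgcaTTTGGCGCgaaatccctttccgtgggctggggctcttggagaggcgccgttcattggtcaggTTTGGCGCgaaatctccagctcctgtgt
On GRCh38.p14 they lie at chr1:23531248-23531295 (minus strand) for E2F2 and chr16:85688958-85689005 (minus strand) for GINS2. They lie at chr19:4909467-4909500 (plus strand) for UHRF1 and chr2:135876506-135876615 (minus strand) for MCM6. In GINS2 and UHRF1 the match reads from the opposite strand, and MCM6 holds 2.

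Mitosis genes were low too. Of 50 genes, 20 were at least 2-fold lower and 0 higher, with a median of -0.88. KIFC1, a spindle motor, had 552 in TNF+Dox and 1756 in Dox, an effect of -1.51. CENPA, the centromere histone, had 683 in TNF+Dox and 1985 in Dox, an effect of -1.39. FOXM1, the transcription factor of the G2 to M program, stood at -1.38, PRC1 at -1.37, AURKB at -1.37 and TPX2 at -1.25. CDC25B (0.48), ESPL1 (0.05) and KIF18B (0.02) were the 3 members not below 0. MKI67 stood at -0.24 with treated signals of only 9.22 in TNF+Dox and 29.6 in Dox. CDCA8 stood at -1.29, but at 0.37 with the local background, under which AURKB stood at -0.95. Under that background 12 of 50 were at least 2-fold lower, beside 194 of 14848 over all genes. By the authors' deposited values 31 of 50 were at least 2-fold lower, beside 495 of 14369 over all genes. Taking both lists, 36 of 90 genes were at least 2-fold lower and 87 of 90 below 0, beside 0.889% of all genes at least 2-fold lower. Genes of ribosome biogenesis and MYC output showed 0 of 22 at 2-fold with a median of -0.42, and cytosolic ribosomal protein genes 0 of 38 with a median of 0.11. In bulk RNA, fewer cells in cycle and less of these transcripts per cell cannot be told apart.

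**Figure D4:**
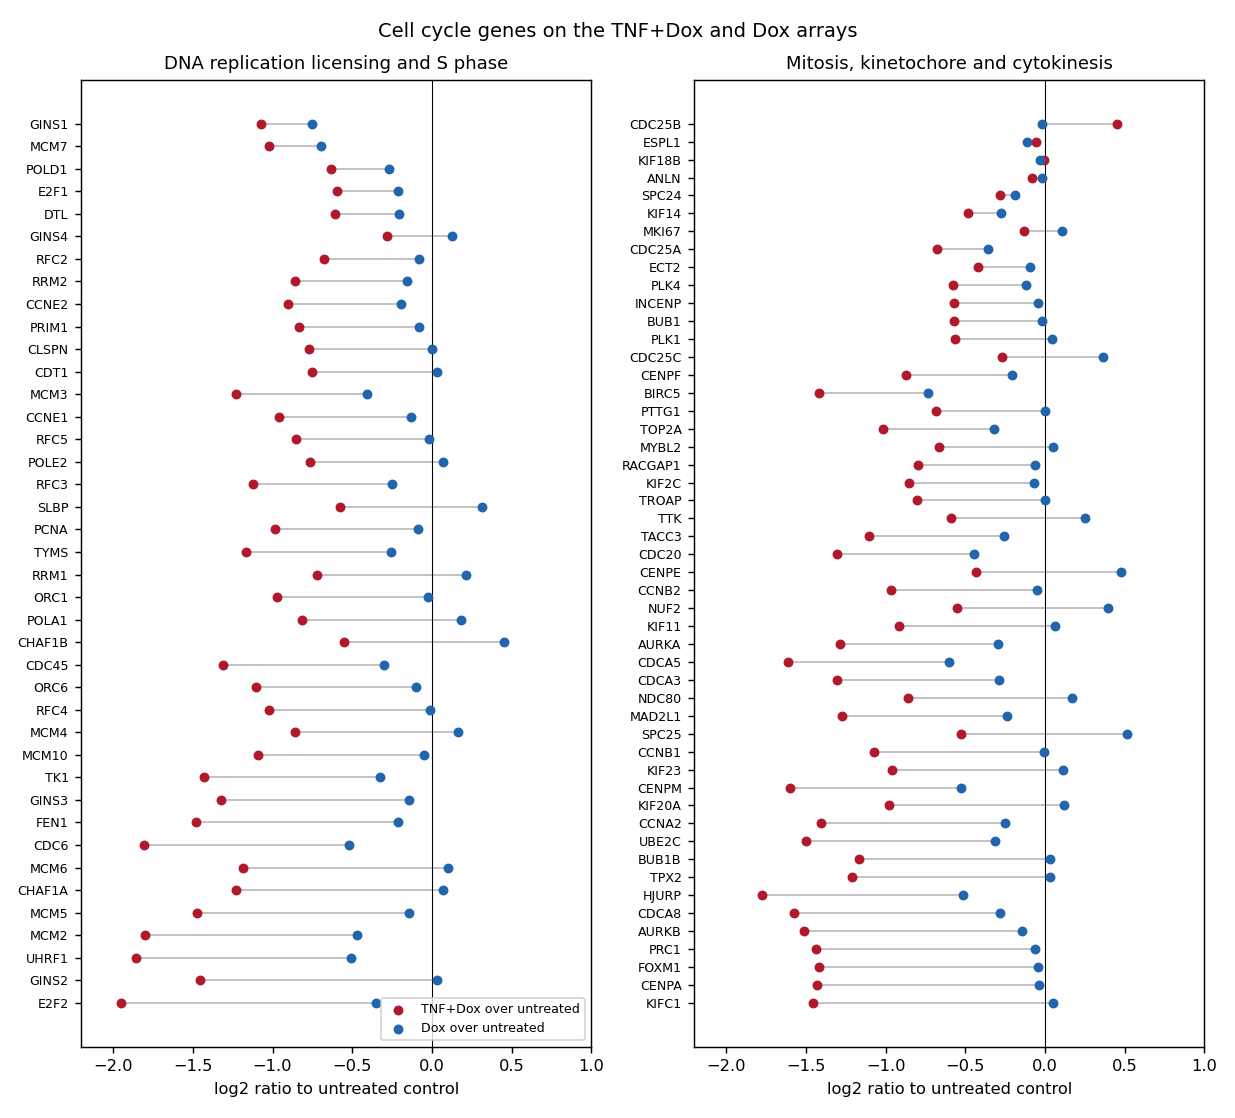
Log2 ratio to untreated control of the 40 S-phase genes and the 50 mitosis genes, for TNF+Dox (red) and Dox (blue), ordered by the difference. In all 40 S-phase genes and 47 of the 50 mitosis genes the red point lies left of the blue one, which scatters around 0.

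Of 24 p53 targets and growth arrest genes, 5 were at least 2-fold higher and 0 lower, while 10 stood below 0, with a median of 0.24. The antiproliferative BTG2 had 1719 in TNF+Dox and 319 in Dox, an effect of 2.08. GADD45A had 11686 in TNF+Dox and 3502 in Dox, an effect of 1.72. The CDK inhibitor CDKN1A (p21) had 9911 in TNF+Dox and 3500 in Dox, an effect of 1.34, and was above control in both (2.05 in TNF+Dox and 0.71 in Dox). CDKN2B (p15) stood at 1.63, with a control signal not well above background on the Dox array, and GADD45G at 1.03. With the local background 2 of 24 were at least 2-fold higher, beside 173 of 14848 over all genes. CDKN1A (0.20), CDKN2B (0.64) and GADD45G (0.48) were under 2-fold there, and the list median was -0.053. The p53 targets MDM2 (0.01), SESN2 (-0.08) and DDB2 (-0.38) stood near or below 0, and CDKN1B (p27) at -0.68.

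The outputs of ERK signalling had 4 of 23 members at least 2-fold lower and 0 higher, with a median of -0.28. DUSP6, the phosphatase that switches ERK off and is itself induced by it, had 572 in TNF+Dox and 1892 in Dox, an effect of -1.69, with control signals of 1716 on the TNF+Dox array and 1543 on the Dox array. Over control it stood at -2.28 in TNF+Dox and -0.59 in Dox. The ETS factor ETV4 had 1737 in TNF+Dox and 4987 in Dox, an effect of -1.37. VGF stood at -1.52 and TNS4 at -1.59. The 2 probes of TNS4 disagreed in size, at -2.73 and -0.45, and with the local background their mean was -0.66. ETV5 stood at -0.67, SPRY1 at -0.56, SPRY2 at -0.18 and SPRED1, another inhibitor of the pathway, at 0.80. In the EGF family the ligand EREG stood at -1.26 and ERRFI1, the feedback inhibitor of the EGF receptor, at 1.63 (0.75 with the local background).

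Of 26 Notch targets, 3 were at least 2-fold higher (CDKN1A, JAG1 at 1.30 and OLFM4) and 1 lower (ID2, -1.43), with a median of 0.08. OLFM4 was saturated in TNF+Dox and had a ratio difference of 1.09, which was under 2-fold with an offset of 16 (0.97) and by the authors' deposited values (0.71). HES1 had 835 in TNF+Dox and 1047 in Dox, an effect of -0.35, and HES5 and HEY1 stood at 0.59 and 0.61. Of 32 Notch receptors, ligands and modifiers, JAG1 alone passed 2-fold. Of 24 stem cell and Wnt target genes, OLFM4 was at least 2-fold higher and EPHB2 (-1.29) at least 2-fold lower, with 20 of 24 below 0, a median of -0.27 and LGR5 at -0.85. The authors' deposited values gave a median of -0.56 for this list, with 4 of 24 at least 2-fold lower and 0 higher. Over all genes those values gave 495 lower and 563 higher of 14369. Of 32 absorptive enterocyte genes, 3 were at least 2-fold higher with a median of -0.0011. They were the guanylins GUCA2A and GUCA2B, hormones of salt and water secretion, and the fructose transporter SLC2A5. GUCA2A had 12346 in TNF+Dox and 399.7 in Dox, an effect of 3.02. GUCA2B stood at 1.27 with 183 in TNF+Dox and 26.6 in Dox, and SLC2A5 at 2.41 with 1236 in TNF+Dox and 130.3 in Dox. FABP1 (-0.77) and CA2 (-0.80) were the lowest of the list. Of 35 goblet and secretory genes, FOXA1 (1.26), MUC13 (1.09) and KLK10 (1.06) were at least 2-fold higher, 0 were lower, and the median was -0.07. The secretory factor ATOH1 was not well above background in TNF+Dox, and MUC2 stood at 0.06, being below control in both cultures (-1.48 in TNF+Dox and -1.55 in Dox). ID2 (-0.88), GUCA2B (0.92) and FOXA1 (0.89) were under 2-fold with the local background.

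Transporters and metabolic genes contributed single members. SLC6A14, a concentrative amino acid transporter, had 1033 in TNF+Dox and 38.5 in Dox, an effect of 3.09, while SLC7A5 (-1.10) and SLC6A20 (-1.21) were at least 2-fold lower. These made up 2 low members, beside 3 high ones, of 24 amino acid and sugar transporters. By the authors' deposited values 4 of 24 were low, beside 495 of 14369 over all genes. The probe of MT4, a metallothionein, had 425 in TNF+Dox and 2254 in Dox, an effect of -2.23, with control signals of 4239 on the TNF+Dox array and 4070 on the Dox array. The other 11 genes of that list lay between -0.38 and 0.19. The transferrin receptor TFRC, often used as a reference gene, had 2390 in TNF+Dox and 5966 in Dox (-1.19), and with B2M it was 1 of 2 of 12 reference genes past 2-fold, whereas GAPDH stood at -0.08 and ACTB at -0.44. Junction genes had 3 of 27 members at least 2-fold higher, DSP (1.39), F11R (1.21) and CTNNB1 (1.18), and 1 lower, CLDN2 (-1.37). CLDN2, a leaky pore claudin, had 25.8 in TNF+Dox and 243 in Dox, below controls of 603 on the TNF+Dox array and 789 on the Dox array. CTNNB1 (0.98) and CLDN2 (-0.93) were under 2-fold with the local background.

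Few members passed 2-fold in the unfolded protein response (0 of 17 at 2-fold, median 0.21), glycolysis and hypoxia (0 of 28, median -0.06), cholesterol synthesis (1 of 20, STARD4 at 1.72, median -0.15), the ATF4 response (1 of 27, SLC7A5, median -0.19) and immediate early genes (1 of 18, IER5 at 1.21, median 0.0026). The other lists also had few. NRF2 targets had 1 lower of 12, AKR1B10 (-1.18), with a median of -0.23, TGF-beta and BMP feedback genes 1 lower of 20, ID2, with a median of -0.08, keratins 1 higher of 17, KRT6B (1.04), with a median of 0.28, and intestinal transcription factors 1 higher of 18, HNF4G (1.31), with a median of -0.02. IER5 (0.97), AKR1B10 (-0.47) and KRT6B (0.58) were under 2-fold with the local background. Under that background 4 of 27 genes of the ATF4 response were at least 2-fold lower, beside 194 of 14848 over all genes. By the authors' deposited values 5 of 20 TGF-beta and BMP feedback genes were at least 2-fold lower, with a median of -0.32, and 2 of 12 NRF2 targets. Over all genes 495 of 14369 were at least 2-fold lower by those values.

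**Figure D5:**
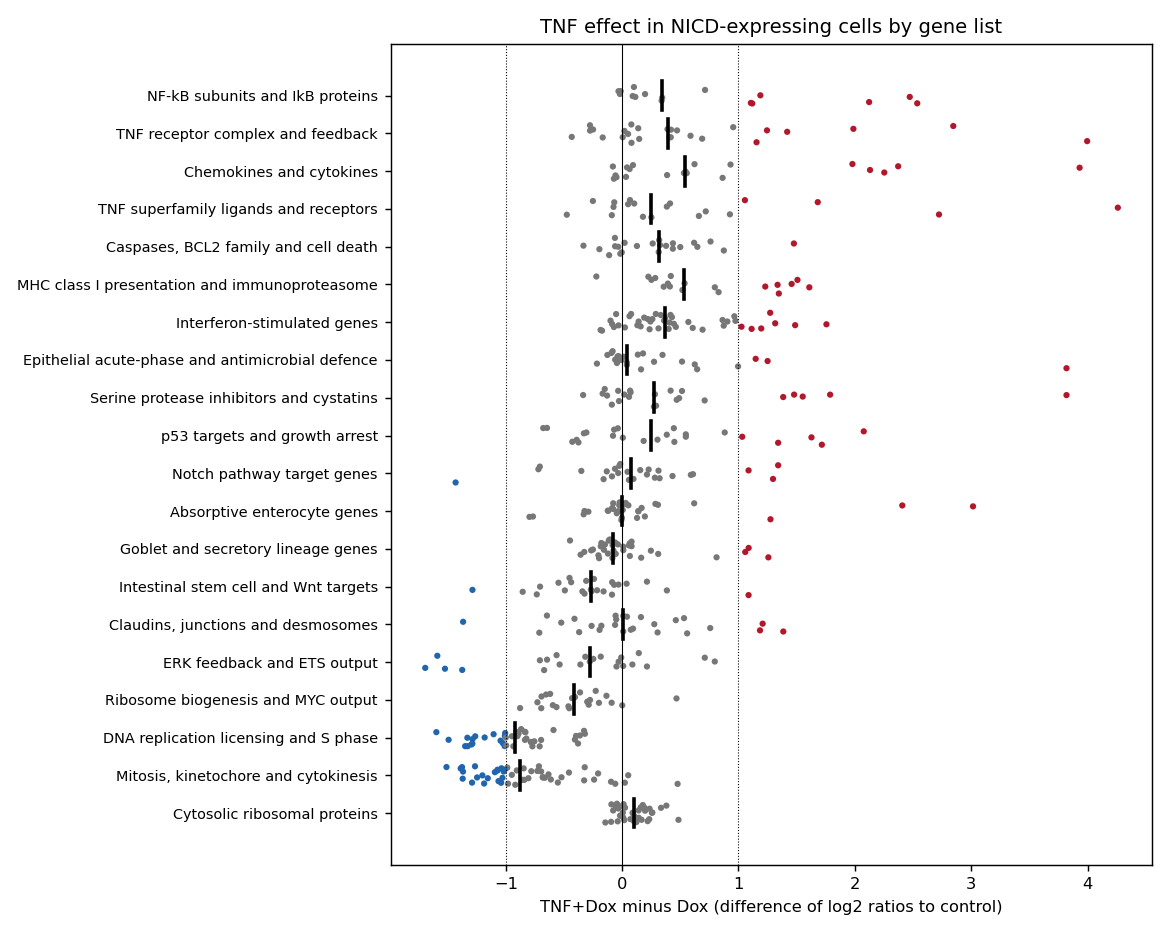
TNF+Dox minus Dox (difference of log2 ratios to control) for every compared member of 20 gene lists. Points at or beyond 2-fold are red (higher) or blue (lower), black bars are list medians and dotted lines mark 2-fold; the S-phase and mitosis lists lie left of 0 with medians of -0.92 and -0.88, and the NF-kB, chemokine and MHC class I lists have tails to the right.

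The third array held TNF alone against control, without doxycycline, and between its probes of the same gene the SD of the log2 ratio was 0.757, against 0.298 on the TNF+Dox array and 0.245 on the Dox array. Of the 181 higher genes 97 stood above control on this array, 27 of them at least 2-fold, and of the 132 lower genes 69 stood below control, 22 of them at least 2-fold. The same shares over all compared genes were not counted, so these counts cannot be read as a result about the called genes. Ratios over control on this array were 4.61 for LTB, 4.69 for BIRC3 and 2.13 for RELB, beside TNF effects in NICD-expressing cells of 4.26, 4.00 and 2.54. UBD, saturated in TNF+Dox, and CCL20, not well above background in Dox, have only bounds in NICD-expressing cells and are not set beside it. For CXCL8 the ratio on this array was 5.22, on a treated signal of 3596, beside 0.93. The latter is understated by the offset, since the treated signals were 93.3 in TNF+Dox and 9.28 in Dox. The TNF effect of CXCL8 reached 3.14 under another setting, so the pair is not like for like. Over control, with the same offset on each array, CXCL8 stood at 0.51 in TNF+Dox, below the 5.22 on the TNF array. Its control signals were 22.9 on the TNF+Dox array and 24.6 on the TNF array. For DUSP6 the ratio on this array was -0.57, beside -1.69, and for GINS2 -0.11, beside -1.49. Some called genes had opposite signs. CTNNB1 stood at -4.10 on this array beside 1.18, JAG1 at -1.69 beside 1.30 and IQGAP3 at 1.59 beside -1.48. Whether any of these pairs differ was not tested.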

How the data were processed

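Per the labels, total RNA was amplified to aRNA and dyed, with treated RNA in Cy3 and control RNA in Cy5, and both were put on 1 array. The deposited scanner files give spot intensity on a linear scale, combined from several scans per the file headers. The authors' deposited series table holds log2 values, all 19605 of the TNF+Dox array and 19535 of the Dox array matched within 0.001 by log2 of Cy3 over Cy5 minus the array median.

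Intensities were corrected here for the 5%-trimmed mean of 2680 blanks, then by normexp (offset 50) and loess in limma 3.58.1 under R 4.3.3, with control spots unweighted. The deposited local background was not used, since on the log scale it followed the signal (r of 0.917 to 0.960 over probes). A channel was above background past the 95th percentile of the blanks and saturated at 65535. A bound sets Cy3 levels, after loess and Aquantile, of the bright spot against the higher of the dim spot and the lowest level above background, and is open to dye bias. Of 24460 probes, 20236 had 1 gene symbol; 2899 symbols were updated with a current RefSeq table, 17238 kept and 99 left unmatched, and 4224 probes without a symbol were left out. Probes of 1 gene were averaged, and cross-hybridisation between near-identical paralogues (HLA, CXCL1 to CXCL3, metallothioneins, histones) was not tested. The steps were tested on simulated arrays. The remaining steps ran in Python 3.11.15 with pandas 2.3.3 and matplotlib 3.10.9.

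Genes at 2-fold (log2 of 1) or more were counted, with no test, because each condition had 1 array. Named are 12 set genes, the 25 highest and 25 lowest fully measured genes, the 10 highest and lowest others, up to 8 per direction in each of 40 gene lists, and members for contrast; the values of HES5, NOTCH1, BTN3A1, SPIB and the genes under other observations were chosen after their values were seen. The lists, members and settings were chosen with earlier results of these data known. The lists overlap in some genes.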

Additional observations from a re-analysis of the deposited data

How the results depend on the processing

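No paired analysis was possible because TNF+Dox and Dox had 1 array each. The number of arrays limits the precision, and the offset limits what dim genes can show. Beside 181 genes higher and 132 lower, an offset of 16 gave 278 and 217, the authors' deposited values 563 and 495, a 1.5-fold threshold 576 and 614, and a 3-fold threshold 60 and 4. The other settings gave 169 to 237 higher and 131 to 194 lower, each within 1.5 times. They were no background subtraction, local background, median centring, Cy3 alone and the brightest probe. The filters were none on dim probes, both channels above background, and above background on all 3 arrays. Aquantile leaves the log2 ratios of an array unchanged, so its 181 and 132 were the same by construction and are no check. With the local background, 109 of the 181 and 59 of the 132 genes were shared, and 86 of 124 named genes past 2-fold stayed so; BID (-1.06) and CDCA8 (0.37) changed direction, and the cause was not tested. The median of the mitosis list was -0.58 there. With Cy3 alone, median centring and an offset of 16, 123 of the 124 stayed past 2-fold, and with the authors' deposited values 116 of 120. The exceptions were KLK10 (0.98 with Cy3 alone, 0.97 with median centring, 0.95 in the authors' deposited values), OLFM4 (0.97 with the offset of 16, 0.71 in the authors' deposited values), IGFL1 (0.65) and SERPINA12 (0.62), the last 2 in the authors' deposited values. The median of the S-phase list ranged from -1.17 to -0.78 over these settings.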

Other observations

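Single genes outside the lists are given here because their values were low in TNF+Dox, and nothing was counted or tested over them. The histone H4 genes H4C9 and H4C2 stood at -1.30 and -1.13, the condensin subunits NCAPH, NCAPG2 and NCAPD3 at -1.07, -1.08 and -1.05, and HMGB2 at -1.28, with 3890 in TNF+Dox and 8980 in Dox. Repair and replication enzymes EXO1, LIG1, FANCI and RAD54L stood at -1.23, -1.15, -1.12 and -1.05, and the maintenance methyltransferase DNMT1 at -1.10.

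Others were picked likewise because their values were high. ALDH1A1, which makes retinoic acid, had 2901 in TNF+Dox and 636 in Dox, an effect of 1.97. CYP26B1, which degrades it, stood at 1.34, and the retinal reductase DHRS3 at 1.24. The interferon gamma receptor chain IFNGR1 had 5288 in TNF+Dox and 1492 in Dox, an effect of 1.82. BTN3A2 stood at 1.78. Of the 181 higher genes, 108 belonged to none of the 40 lists, and of the 132 lower genes, 83.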
